A study of Mus musculus with 4 samples.

Results

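The genes described here encode the subunits of the proteasome and the factors that assemble it. They are the protein-coding rows of the deposited table whose symbol begins with Psma, Psmb, Psmc, Psmd, Psme, Psmf or Psmg followed by a number. The rule found 49 of the 24169 rows, and 44 of the 49 reached the level at which genes were tested. One of the 49, Psmc3ip, is a cofactor of homologous recombination named for a partner of a proteasome subunit, and it is given as a class of its own, a match by name. The table also held 1 pseudogene row of the family, Psmb7-ps2, which the rule leaves out and which was listed at 0 in 3 of the 4 libraries.

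Total RNA was sequenced from C8-D1A, an established mouse line labelled as astrocytes. The control group (2 libraries) was untreated. The MBP group (2 libraries) received 1 mM MBP for 24 h. The labels do not spell MBP out, and it stands here for the added compound and not for the myelin gene Mbp. The labels name no genotype or other agent for either group, and all 4 libraries come from the same line. The labels do not state whether the libraries within a group are separate cultures, so p-values measure the spread between these libraries, which may be technical.

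The proteasome is the protease that degrades most short-lived and damaged proteins of the cell after they are tagged with ubiquitin. Its barrel, the 20S core, has outer rings of alpha subunits, which gate the entrance, and inner rings of beta subunits, among which Psmb5, Psmb6 and Psmb7 carry the chymotrypsin-like, caspase-like and trypsin-like active sites. The 19S cap binds ubiquitin, removes it, and unfolds and feeds in the substrate with a ring of ATPases. Interferon signalling can replace the catalytic subunits with Psmb8, Psmb9 and Psmb10, which form the immunoproteasome and shape the peptides shown on MHC class I, and proteasome loss raises transcription of subunit genes through the factor NRF1 (gene Nfe2l1).

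Sequence before the start of 2 catalytic-subunit genes is shown as an example of the letters of the NRF1 route, which proteasome genes held about as often as other genes. The stretches are from RefSeq (build GRCm38.p6) and read 5′ to 3′ on the strand of the gene. The Psmb5 stretch (chr14:54617996-54618095, minus strand) and the Psmb6 stretch (chr11:70525257-70525356, plus strand) are the 100 bases before the RefSeq start. Capitals mark TGACNNNGC, the core of the antioxidant response element that NRF1 and NRF2 bind.
Psmb5: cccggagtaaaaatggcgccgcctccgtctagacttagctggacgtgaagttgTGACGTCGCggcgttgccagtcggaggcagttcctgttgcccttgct
Psmb6: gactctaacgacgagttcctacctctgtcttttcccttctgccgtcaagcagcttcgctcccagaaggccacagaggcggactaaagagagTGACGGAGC
The match lay 47 to 39 bases before the start of Psmb5 and 9 to 1 bases before that of Psmb6. RefSeq windows were found for 42 of the 49 genes, and both strands of the 250 bases before each start were searched.

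Across those 42 genes TGACNNNGC was found in 5 (Psmb5, Psmb6, Psmc6, Psmd9 and Psmd12), a share close to the 11.5% of all genes with a window. The interferon-stimulated response element (GAAA, any 2 bases, GAAA) was found in 3 (Psmb3, Psmd4 and Psmd9), beside 3.46%. Of the letters common to promoters of widely used genes, the ETS site CCGGAAG was found in 13 of the 42 beside 7.83% of all genes, the GC box GGGCGG in 22 beside 35.4% and CCAAT in 15 beside 37.5%. Matches of different motifs overlapped in 2 places. A match describes letters only, and no factor binding was measured.

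Levels are in FPKM, fragments scaled by gene length and by the mapped reads of the library. For 42 of the 49 genes that length was of all exons merged, which can exceed the transcript in use. It was 2952 bases for Psma1, whose longest transcript has 1201, and 1394 by both measures for Psmc5. Levels of different genes can therefore be compared only roughly, and the fold ranges below include such differences in length. All standard core and cap genes were expressed above 10 FPKM in every library. In the controls the means of the 14 core subunits ran from 14.1 ± 1.90 FPKM for the alpha subunit Psma2 to 117.9 ± 11.3 for the beta subunit Psmb1 (SD, n = 2), an 8.37-fold range for proteins built into the core in equal numbers. Without Psmb1, whose FPKM steps do not give whole reads at its annotated length, the core range was 5.21-fold. The 6 ATPases of the 19S cap spanned 9.11-fold, or 4.12-fold without Psmc6, and the 11 other cap subunits that the rule matched 4.25-fold.

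Psmc6, an ATPase of the cap, had the highest level of the 49, at 215.0 and 217.6 FPKM in controls 1 and 2 and 217.3 and 218.2 in MBP 1 and 2. The 4 libraries were nearly equal, and none of the other genes reached this level in any library. Its FPKM steps do not give whole reads at the length that GENCODE mouse release 21 gives, so the length behind this value is uncertain. The lowest of the assembly chaperones was Psmg3, at 0.738 and 0.645 FPKM in the controls and 0.548 and 0.627 with MBP. Exons of Psmg3 overlap those of Gm26938 on the same strand. How reads of shared exons were counted is not given, so the level of Psmg3 is uncertain. Psmg4, the binding partner of Psmg3 in assembly, was at 19.5 and 19.6 FPKM in the controls and 20.99 and 15.7 with MBP.

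**Figure D1:**
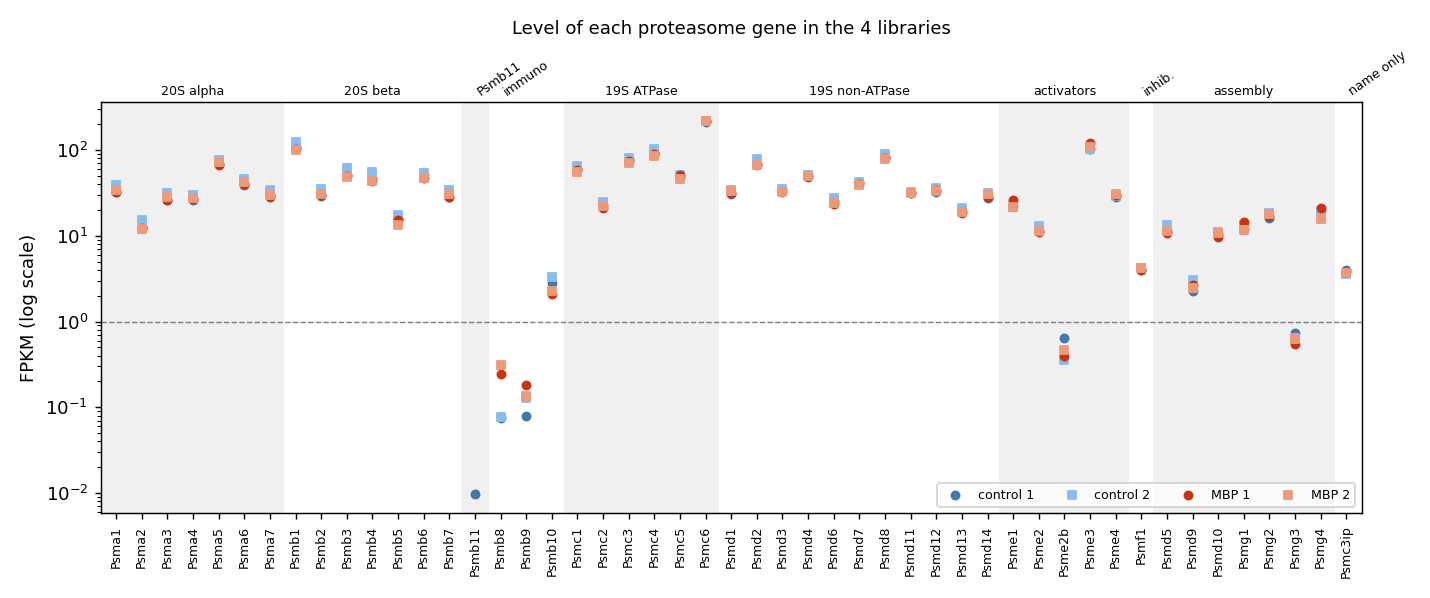
FPKM of each of the 49 genes on a log axis, 1 point per library, ordered by role; values of 0 are not drawn, and the dashed line marks 1 FPKM, the level used in the filter for testing. The standard core and cap genes lie between 12.1 and 218.2 FPKM, while Psmb8, Psmb9, Psmb11, Psme2b and Psmg3 lie below the line.

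The comparison of MBP with control asks whether exposure altered the set. No gene of the proteasome passed limma's test at an adjusted p of 0.05, nor did any gene at all: 0 of the 44, beside 0% of the 12403 genes tested, those with at least 1 FPKM in at least 2 of the 4 libraries. Adjusted p-values of the 44 ran from 0.503 to 0.995, and the lowest over all genes was 0.392. Fold changes below are the difference, MBP minus control, of log2(FPKM + 1). At an unadjusted p under 0.05, 4 of the 44 had lower values with MBP (Psmb10, Psmb6, Psmc1 and Psmb1), beside 5.87% of all tested genes, and 0 had higher values, beside 3.81%.

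Most of the 44 genes had somewhat lower values with MBP, and the size of the difference depended on 1 control library. The fold change was negative in 36 of the 44, beside 51.6% of all tested genes, with a median of -0.08 beside -0.0048 over all. In 21 of the 44 both MBP libraries were below both controls, beside 23.5% of all tested genes, and in 2 both were above, beside 21.3%. Control 2 was the highest of the 4 libraries for 36 of the 44, beside 32.3% of all tested genes. These counts include Psmc3ip, and without it 35 of 43 were negative, with a median that was also -0.08. Without control 2, 27 of the 44 were negative and the median was -0.02, and without control 1 it was -0.17.

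**Figure D2:**
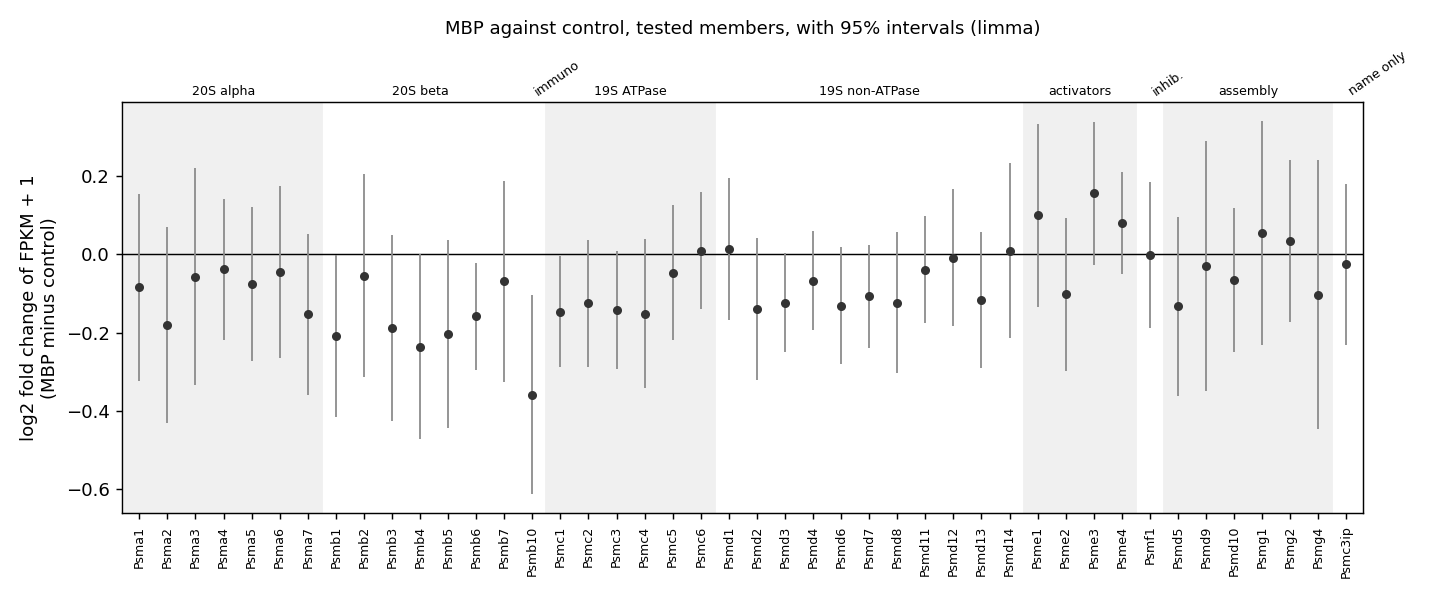
Difference of mean log2(FPKM + 1), MBP minus control, for the 44 tested genes, with limma's 95% intervals from 2 libraries a group. Values run from -0.36 for Psmb10 to 0.16 for Psme3, and no gene passed the adjusted test.

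All 14 subunits of the 20S core had lower mean values with MBP, and all 14 were highest in control 2. The median fold change was -0.08 in the 7 alpha subunits and -0.19 in the 7 standard beta subunits. The MBP libraries lay below both controls for 2 of 7 alpha and 5 of 7 beta subunits, beside 23.5% of all tested genes, and the alpha count is near that share. Without control 2 the medians were 0.04 for the alpha ring and -0.11 for the beta ring.

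Psma2, an outer-ring subunit, was at 12.7 and 15.4 FPKM in controls 1 and 2 and at 12.5 and 12.1 in MBP 1 and 2, a fold change of -0.18 (SE 0.0973). Psma7, another alpha subunit, was at 30.3 and 34.6 FPKM in the controls and 28.3 and 29.8 with MBP, a fold change of -0.15 (SE 0.0800). In both genes control 1 stood close to the MBP libraries and control 2 apart from them, with no overlap of the groups. Psma5, the most abundant alpha subunit, was at 69.6 and 77.3 FPKM in the controls and 67.0 and 72.2 with MBP, and its groups overlapped. The remaining alpha genes, Psma1, Psma3, Psma4 and Psma6, had control means from 28.1 to 42.7 FPKM and groups that overlapped.

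Psmb6, which carries the caspase-like site, was at 51.7 and 54.1 FPKM in the controls and 47.6 and 47.0 with MBP. Both MBP libraries were below both controls, and the fold change was -0.16 (SE 0.0538, 95% interval -0.30 to -0.02, adjusted p = 0.503 with limma). Psmb5, which carries the chymotrypsin-like site, was at 15.7 and 17.6 FPKM in the controls and 15.4 and 13.3 with MBP, again with no overlap, though control 1 and MBP 1 were close. The third standard catalytic subunit, Psmb7, was at 28.6 and 34.3 FPKM in the controls and 28.6 and 31.1 with MBP, and its groups overlapped.

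Of the beta subunits without an active site, Psmb1 was at 109.9 and 125.9 FPKM in the controls and 102.6 and 100.8 with MBP, a fold change of -0.21 (SE 0.0809, adjusted p = 0.514 with limma). Psmb4 was at 47.0 and 56.0 FPKM in the controls and 43.3 and 43.5 with MBP, a fold change of -0.24 (SE 0.0925, adjusted p = 0.515 with limma). Both genes had MBP libraries close to each other and controls that were further apart. Psmb3 was at 51.5 and 61.4 FPKM in the controls and 49.3 and 49.2 with MBP, with no overlap, and Psmb2 was at 28.8 and 35.2 FPKM in the controls and 30.3 and 30.9 with MBP, with overlap. Psmb11, the core subunit of the thymus cortex, gave 1 read in control 1 and none in the other libraries, where 0 reads allow up to 0.0273 to 0.0300 FPKM (3 reads, counting error only).

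The difference between the controls was larger for the core than the difference between the groups. For the 14 core genes the median of control 2 minus control 1, on the log2 scale, was 0.23, while MBP 2 minus MBP 1 was 0.02. Control 2 was above control 1 for 14 of 14 core genes and 42 of the 44 genes, beside 6134 of the 12403 tested. Core transcripts are short: the median longest transcript of the 14 was 1220 bases, beside 3096 for all tested genes. Over the 3099 tested genes with the shortest transcripts the median of control 2 minus control 1 was 0.031, and over the 3097 with the longest it was -0.048. The median MBP-minus-control fold change was -0.06 in that short group and -0.08 in the 3097 genes of highest GC content, beside the -0.08 of the proteasome genes, whose median GC content was 49.7% against 49.0% for all tested genes. The part of transcript length in the difference between the controls was otherwise not tested. Values were also corrected for GC content and exon length, the length of all exons of a gene merged. The length of the longest transcript was not corrected for. The median fold change was then -0.07 in the alpha ring, -0.12 in the beta ring and -0.06 over the 44 genes. Of the 44, 35 were negative.

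Single genes moved by more than 1.5 times under the same changes. Corrected for exon length and GC content, Psma7 was -0.07, Psma5 -0.03, Psmb6 -0.09, Psmc3 -0.06 and Psmc4 -0.08 in fold change. Without control 2, Psma2 was -0.05, Psma7 -0.06, Psmb1 -0.11, Psmb4 -0.11, Psmc4 -0.09 and Psmd6 -0.08, and Psma5 was -0.00091. All of these kept a negative sign at a smaller size. Other genes had larger fold changes after the correction, among them Psma2 (-0.18 to -0.25), Psmd5 (-0.13 to -0.18), Psmd10 (-0.06 to -0.10) and Psme3 (0.16 to 0.19).

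**Figure D3:**
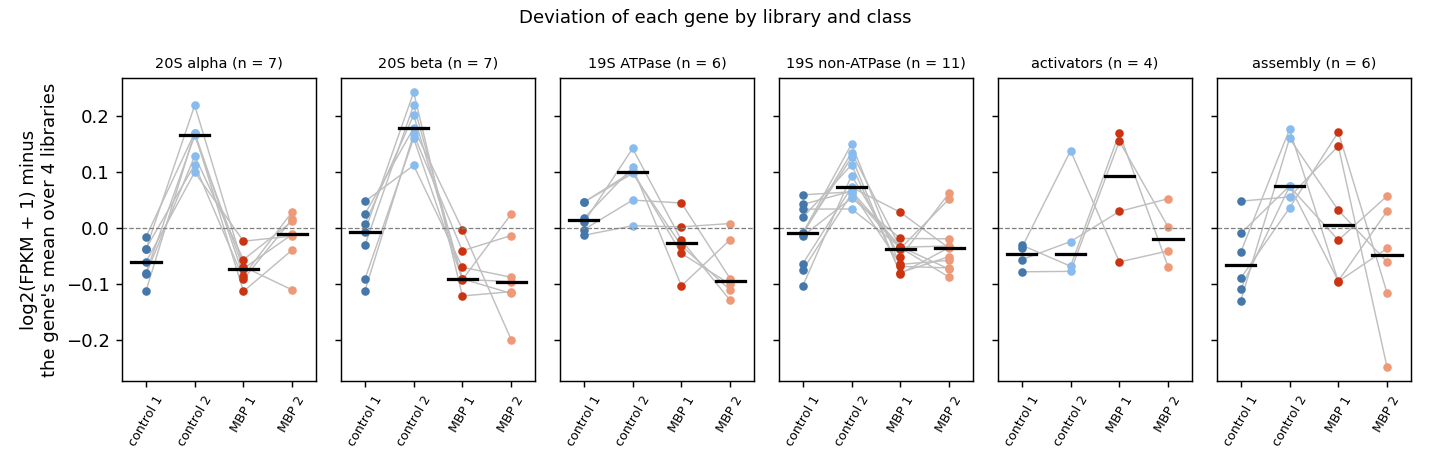
Each gene's log2(FPKM + 1) in a library minus its mean over the 4 libraries, by class; points are genes, grey lines join the values of 1 gene, and black bars are class medians. In the 20S rings control 2 stands above the other libraries, with class medians of 0.16 (alpha) and 0.18 (beta), and in the activators it does not, with a median of -0.05.

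Of the 17 subunits of the 19S cap that the rule matched, 14 had lower mean values with MBP, beside 51.6% of all tested genes. In 12 the groups did not overlap, all lower, beside 23.5%. The median fold change was -0.13 for the 6 ATPases, which unfold the substrate, and -0.11 for the 11 other subunits. The controls differed less here than in the core, with a median of control 2 minus control 1 of 0.09 on the log2 scale. Without control 2 the medians were -0.08 and -0.05, and corrected for exon length and GC content they were -0.08 and -0.06.

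Psmc1, an ATPase, was at 62.1 and 64.5 FPKM in the controls and 58.2 and 56.0 with MBP, a fold change of -0.15 (SE 0.0555, adjusted p = 0.512 with limma). Psmc3, another ATPase of the ring, was at 78.8 and 81.7 FPKM in the controls and 74.6 and 70.6 with MBP, a fold change of -0.14 (SE 0.0587). Psmc4 was at 93.3 and 102 FPKM in the controls and 91.2 and 84.6 with MBP, a fold change of -0.15 (SE 0.0743). In each of the 3 genes both MBP libraries were below both controls. Psmc2 also had groups apart, with means of 23.7 ± 1.10 and 21.7 ± 0.918 FPKM (SD, n = 2), and Psmc5 had groups that overlapped, at 49.98 ± 1.32 and 48.4 ± 3.27 FPKM.

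Among the subunits without ATPase activity, Psmd3, a scaffold of the lid, was at 35.2 and 35.3 FPKM in the controls and 32.2 and 32.4 with MBP, a fold change of -0.12 (SE 0.0493, adjusted p = 0.516 with limma). Psmd6, also of the lid, was at 25.6 and 27.4 FPKM in the controls and 23.8 and 24.3 with MBP, a fold change of -0.13 (SE 0.0584). Psmd7, the lid partner of the deubiquitinase Psmd14, was at 42.2 and 42.9 FPKM in the controls and 40.0 and 38.9 with MBP, a fold change of -0.11 (SE 0.0514). The controls of Psmd3 and Psmd7 lay within 1 FPKM of each other, and both groups were apart. Corrected for exon length and GC content, the fold changes were -0.07 for Psmd3 and -0.06 for Psmd7.

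The ubiquitin receptor Psmd4 was at 51.6 FPKM in both controls and 49.2 FPKM in both MBP libraries, a ratio of means of 0.954 with almost no spread within the groups. Because limma shares the spread over genes of like level, its unadjusted p was 0.233. Psmd14, which removes ubiquitin from substrates, was at 27.4 and 31.6 FPKM in the controls and 28.5 and 30.9 with MBP, and its groups overlapped. Psmd2, a large base subunit that docks shuttle factors, was at 69.7 and 77.9 FPKM in the controls and 66.8 and 66.7 with MBP, with no overlap. Psmd8, Psmd11 and Psmd13 had groups that did not overlap, lower with MBP, at control means from 20.4 to 86.4 FPKM, and Psmd1 and Psmd12 had groups that overlapped.

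The immunoproteasome subunits were at low levels in this line, and their differences had no common direction. Psmb8 and Psmb9 were under 1 FPKM in every library, while Psmb10 was at 2 to 3 FPKM. Psmb8 was higher with MBP in both libraries but under the level for testing, and Psmb10 was lower in both and did not pass the adjusted test. Reads were recovered from the steps of the FPKM values, and intervals on reads cover counting error only.

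Psmb8, which replaces Psmb5, was at 0.0751 and 0.0775 FPKM in the controls and 0.244 and 0.310 with MBP, from 5, 5, 16 and 22 reads. The controls were alike, and both MBP libraries stood above them at a level that is still a small fraction of Psmb5. Over the summed reads, 10 in the controls and 38 with MBP, the rate ratio was 3.65 with a 95% counting interval of 1.79 to 8.22, a comparison of these libraries that was added after the values were seen. Psmb8 reads are the smallest whole numbers its FPKM values allow, since its length behind the table is not that of GENCODE mouse release 21.

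Psmb9, which replaces Psmb6, was at 0.0786 and 0.128 FPKM in the controls and 0.183 and 0.137 with MBP, from 7, 11, 16 and 13 reads. The MBP libraries were above the controls, but control 2 and MBP 2 were only 2 reads apart, and the rate ratio of 1.55 had a counting interval of 0.831 to 2.96. Exons of Psmb9 overlap those of the peptide transporter Tap1 on the opposite strand, and Psmb8 overlaps the antisense gene Gm20496. Whether counting used strand is not given in the sources used here, so reads of such pairs cannot be assigned with certainty.

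Psmb10, which replaces Psmb7, was at 2.84 and 3.33 FPKM in the controls and 2.11 and 2.26 with MBP, from 118, 134, 86 and 100 reads. Both MBP libraries were below both controls. The fold change of -0.36 (SE 0.0993, 95% interval -0.61 to -0.10) was the most negative of the 44 (adjusted p = 0.503 with limma). It ran from -0.45 to -0.27 when each library was left out in turn.

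**Figure D4:**
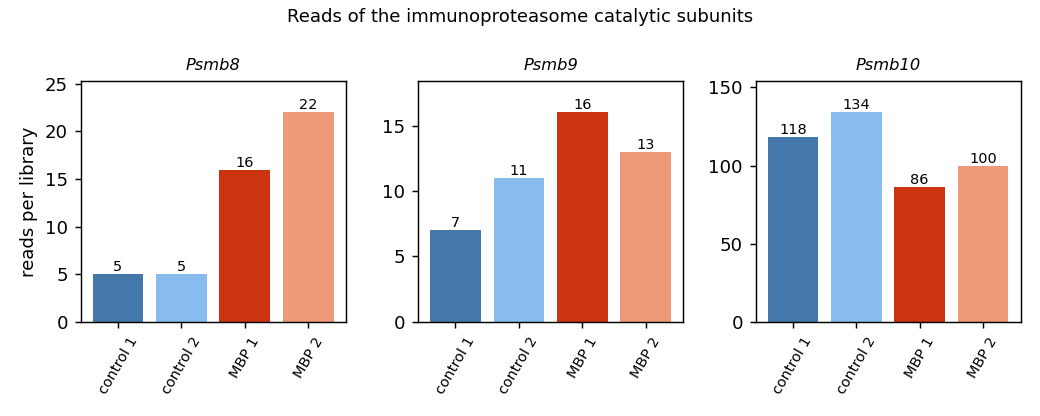
Reads per library for the catalytic subunits of the immunoproteasome, recovered from the FPKM steps; each panel has its own axis from 0, and numbers are reads. Psmb8 has 5 reads in each control and 16 and 22 with MBP, while Psmb10 has 118 and 134 in the controls and 86 and 100 with MBP.

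Each immunoproteasome subunit was then set against the standard subunit it replaces, as a percentage of FPKM within a library. Psmb8 was 0.477% and 0.440% of Psmb5 in the controls and 1.58% and 2.33% with MBP. Neither gene gave whole reads at its GENCODE length, so the level of this percentage is uncertain. Psmb9 was 0.152% and 0.236% of Psmb6 in the controls and 0.383% and 0.292% with MBP. Psmb10 was 9.93% and 9.73% of Psmb7 in the controls and 7.36% and 7.28% with MBP. The groups were apart for each of the 3 ratios, with differences of 2.07, 0.82 and -0.43 in log2 ratio. The Psmb9 difference was 0.51 without control 1, and the Psmb10 difference was -0.23 after the correction for exon length and GC content. Each gave p = 0.333 in a two-sided exact permutation test, the smallest that 2 libraries against 2 allow, and 0.444 after Benjamini-Hochberg adjustment over the 4 ratios tested. For Psmb10 over Psmb7 the spread within groups was small, since control 2 was the higher control for both genes.

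The activators that can take the place of the 19S cap had higher mean values with MBP for 3 of 4 tested genes, with a median of 0.09, or 0.03 without MBP 1. Psme3, the nuclear activator that works without ubiquitin, was at 102.9 FPKM in both controls and 121.1 and 108.8 with MBP, a fold change of 0.16 (SE 0.0711, adjusted p = 0.532 with limma). Psme4, which acts in DNA repair and on histones, was at 28.5 and 29.2 FPKM in the controls and 30.3 and 30.8 with MBP. The fold change of Psme4 was 0.08 (SE 0.0509), or 0.02 corrected for exon length and GC content. These were the 2 genes of the 44 whose MBP libraries were both above both controls, and the fold change of Psme3 was 0.08 without MBP 1.

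Psme1 and Psme2 form the interferon-inducible activator of the immunoproteasome. Psme1 was at 22.5 and 21.9 FPKM in the controls and 26.0 and 21.9 with MBP, and Psme2 was at 11.4 and 12.9 FPKM in the controls and 11.1 and 11.3 with MBP. In Psme1 only MBP 1 stood apart, and in Psme2 the groups did not overlap, with a fold change of -0.10 (SE 0.0765), or -0.02 without control 2 and -0.03 with that correction. The sum of both over Psme4 was 1.19 in each control and 1.22 and 1.08 with MBP (two-sided exact permutation p = 1, smallest possible 0.333). Psme2b, a copy close to Psme2, had 13 and 7 reads in the controls and 8 and 10 with MBP, and reads shared between the copies could be split either way. Psmf1, an inhibitor that binds the core, was at 4.03 and 4.23 FPKM in the controls and 4.01 and 4.24 with MBP, so that the groups covered the same range.

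The assembly chaperones showed no common direction: 4 of 6 tested genes were negative, and the median was -0.05 (0.05 without control 2 and 0.0060 without MBP 2). Groups did not overlap in 0 of 6, beside 23.5% of all tested genes with MBP lower and 21.3% with MBP higher. Psmg3, under the level for testing, had both MBP libraries below both controls, though control 2 and MBP 2 were close. Psmg4, a chaperone of the alpha ring whose values stand above, had a fold change of -0.10 (SE 0.134). This change was 0.09 without MBP 2 and -0.0078 corrected for exon length and GC content. Psmd5, a chaperone of the 19S base, was at 11.2 and 13.2 FPKM in the controls and 10.8 and 11.3 with MBP, a fold change of -0.13 (SE 0.0891), or -0.02 without control 2. Psmd10, also known as gankyrin and a chaperone of the base, was at 10.4 and 11.1 FPKM in the controls and 9.78 and 10.7 with MBP, a fold change of -0.06 (SE 0.0719), or -0.0027 without MBP 1. Of the chaperone pair that starts the alpha ring, Psmg1 was at 12.1 and 13.3 FPKM in the controls and 14.7 and 11.8 with MBP, and Psmg2 had means of 17.1 ± 1.62 and 17.5 ± 0.716 FPKM (SD, n = 2). Psmd9, the remaining base chaperone, was at 2.65 ± 0.517 FPKM in the controls and 2.56 ± 0.161 with MBP. Psmc3ip, the match by name, was at 4.02 and 3.62 FPKM in the controls and 3.79 and 3.67 with MBP, with overlap.

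Partner genes outside the rule were taken from lists, and none of their tested members passed the adjusted test. Pomp, which completes the core, was at 15.5 and 17.0 FPKM in the controls and 15.3 and 16.1 with MBP, and Akirin2, which carries proteasomes into the nucleus, was at 35.5 and 36.0 FPKM in the controls and 33.4 and 34.97 with MBP. Of 15 proteasome-bound and shuttle factors, 9 were negative and 6 positive, with a median of -0.01. The lowest p-values belonged to AI314180, the mouse symbol of the adaptor ECM29, at 24.9 and 23.3 FPKM in the controls and 27.1 and 26.9 with MBP, and to the ubiquitin receptor Adrm1, at 14.3 and 15.7 FPKM in the controls and 13.7 and 13.5 with MBP. Their fold changes were 0.16 (SE 0.0574) and -0.13 (SE 0.0647), or 0.09 and -0.07 corrected for exon length and GC content.

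Of 5 tested ubiquitin and E1 genes, 4 were negative, with a median of -0.14. The ubiquitin gene Ubb was at 199.7 and 227.0 FPKM in the controls and 187.5 and 180.2 with MBP, a fold change of -0.21 (SE 0.0833), or -0.12 without control 2, again the highest library. The E1 enzyme Uba6 was at 6.42 and 6.03 FPKM in the controls and 6.82 and 6.89 with MBP. Its fold change was 0.12 (SE 0.0642), or 0.014 corrected for exon length and GC content. In both genes the groups did not overlap, lower with MBP in Ubb and higher in Uba6. Of the 5 genes, 3 did not overlap with MBP lower and 1 with MBP higher, beside 23.5% and 21.3% of all tested genes.

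The NRF1 route that restores proteasome genes showed 4 negative and 4 positive genes of 8, with a median of -0.05. Nfe2l1, which encodes NRF1, was at 44.7 and 47.4 FPKM in the controls and 45.8 and 46.9 with MBP, so the groups overlapped. Ddi2, the protease that activates NRF1, was at 11.8 and 10.8 FPKM in the controls and 12.9 and 12.4 with MBP, a fold change of 0.15 (SE 0.0682), or 0.08 without control 2. Mafk, a small partner of NRF1 on DNA, was at 10.1 and 10.5 FPKM in the controls and 9.24 and 9.27 with MBP. Its fold change was -0.14 (SE 0.0582), or -0.07 corrected for exon length and GC content. The groups did not overlap in Ddi2 or Mafk, which were named for their low p-values. Over the 8 genes they did not overlap in 4 with MBP lower and 2 with MBP higher. The shares of all tested genes were 23.5% and 21.3%.

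In the class I antigen processing list, which the immunoproteasome feeds, 5 of 9 tested genes were negative and 4 positive, with a median of -0.0035. The class I light chain B2m was at 502.0 and 371.6 FPKM in the controls and 638.5 and 504.0 with MBP, a fold change of 0.39 (SE 0.186), or 0.18 without control 2, and MBP 2 was close to control 1. Irf1, a transcription factor of the immunoproteasome genes, was at 3.98 and 3.91 FPKM in the controls and 2.88 and 3.76 with MBP, a fold change of -0.20 (SE 0.117), or -0.05 without MBP 1. Tap1, the transporter that overlaps Psmb9, was at 0.990 and 1.05 FPKM in the controls and 0.953 and 0.994 with MBP.

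Depth recovered from the FPKM steps was 23571000 to 25907000 reads per library (rounded), and 4 of the 49 genes had fewer than 30 reads in every library. Exons of 15 of the 49 overlap exons of another gene in GENCODE mouse release 21. The other gene is on the opposite strand for 12 of them and on the same strand for 4, and Psmd1 has both kinds. The cell type label was compared with its markers. Of the 9 astrocyte markers in the table, 7 were under 1 FPKM in all 4 libraries, among them Slc1a3, Gja1, Aqp4, Aldh1l1 and Gfap. S100b was above that level, at 5.34 and 5.69 FPKM in the controls and 4.75 and 5.25 with MBP. Sox9 was too, at 2.304 and 2.216 FPKM in the controls and 2.322 and 2.502 with MBP. The summed astrocyte markers, mostly S100b and Sox9, were at 7.88 to 8.81 FPKM. Markers of the oligodendrocyte lineage, mostly Sox10, summed to 119.0 to 123.4 FPKM in the controls and 108.7 to 109.0 with MBP. In that list the myelin gene Mbp was under 1 FPKM, at 0.186 and 0.192 in the controls and 0.199 and 0.165 with MBP. Neuronal markers, mostly Tubb3, summed to 32.9 to 35.6 FPKM in the controls and 25.7 to 26.2 with MBP. Map2, at 2.18 and 1.78 FPKM in the controls and 2.12 and 2.22 with MBP, did not go with that sum. Microglial markers, mostly Tmem119, summed to 5.10 to 6.43 over all libraries, and fibroblast markers, mostly Pdgfrb, to 6.50 to 7.77. In the microglial and the fibroblast list, 4 of 5 markers each were under 1 FPKM in all 4 libraries. The part of the cell type markers in the proteasome values was not tested.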

How the data were processed

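The authors deposited 1 table of FPKM values for the 4 libraries. Per the labels' protocols, ribosomal RNA was removed and a directional kit was used. Tools named in the submitters' processing notes are bcl2fastq and HISAT2, with the build GRCm38. The sources used here do not give the counting program, its annotation or its use of strand. Columns were matched to samples by title, and replicates were numbered in accession order, which pairs nothing.

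Genes were tested on log2(FPKM + 1), so fold changes of low genes are understated, with limma 3.58.1 in R 4.3.3 (two-sided, spread trend, Benjamini-Hochberg adjustment over 12403 genes, threshold 0.05). The test was checked on simulated data with changes larger than those of the tested proteasome genes. That check does not cover changes of their size. Exact tests used scipy 1.17.1. Reads came from the step that FPKM times GENCODE length takes in single-exon genes, and 93.8% to 94.0% of values were whole within 0.05. For 42 of the 49 genes reads were whole at the GENCODE length. The others were Psma7, Psmb1, Psmb5, Psmb8, Psmb11, Psmc6 and Psmg2, and the lengths behind their FPKM are uncertain. Exact read intervals cover counting error only. Spreadsheet dates were restored to symbols for 24 genes.

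The genes, lists and motifs were chosen with earlier results of these data known. Fold changes are given for up to 3 genes of each class, and up to 2 of each partner list, with the lowest unadjusted p. Other genes are given as levels, and Psmb8, Psmb9 and Psmd4 were singled out after their values were seen. Listed genes absent from the table, such as Psma8, were not analysed here, and 1 motif searched is not reported here. Alternatives were other pseudocounts (0.1, 0.01), filters, scalings, spread models, protein-coding genes only and leaving out each library. Further ones were a loess fit (span 0.5) that removes merged exon length and GC content, and limma-voom where the mean was 10 recovered reads or more.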

Additional observations from a re-analysis of the deposited data

How the results depend on the processing

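Each group had 2 libraries, and no proteasome gene passed the adjusted test under any of the 15 alternatives. Over all genes limma-voom on recovered reads called 18 where the main test called 0. Of the 47 proteasome genes in that fit, 0 were among the 18. Psmb8 and Psmb9 were in that fit only through their MBP libraries. Without each library in turn, the median fold change of the proteasome genes ran from -0.169 to -0.023, that of the alpha ring from -0.199 to 0.038, that of the beta ring from -0.28 to -0.11, and that of the assembly chaperones from -0.107 to 0.046. Of 31 named genes, 27 kept their sign in every alternative that gave a value. Under the GC and length correction 16 of the 31 kept their sign but shrank by more than 1.5 times, and without control 2 this held for 14. The exceptions in sign were Psmf1, Psmg4, Psmc3ip and Pomp. Psmf1 was 0.019 on TPM, 0.0020 with median-of-ratios scaling and 0.0028 with quantile normalization, and ran from -0.033 to 0.030 without each library. Leaving out libraries gave -0.301 to 0.095 for Psmg4, -0.086 to 0.035 for Psmc3ip and -0.111 to 0.016 for Pomp, and Psmc3ip was 0.023 after the GC and length correction. The log2 ratio of Psme1 and Psme2 over Psme4 ran from -0.145 to 0.040 without each library and was 0.10 after that correction. The lone sample left in a group is then assumed to vary like the other group, and the cause of these shifts was not tested. No paired analysis was possible because the groups share fewer than 2 replicate numbers in the titles.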
